A study of Mus musculus with 10 samples.

Results

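The genes described here are the secreted and membrane-bound enzymes that cut the extracellular matrix, the matrix metalloproteinases (Mmp) and the ADAMTS proteases (a disintegrin and metalloproteinase with thrombospondin motifs), together with their tissue inhibitors (Timp). Members were taken by gene name from the array files, as every Mmp, Adamts or Timp1 to Timp4 name on a probe that is not a control. This gave 46 genes of the 35527 names on the array, with 23 Mmp genes, 19 Adamts genes and 4 Timp genes on 64 probes. Of the 46, 33 reached 5 or more of the 10 arrays with red signal clear of background, the limit for testing. The other 13 are named below with what was seen of them.

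The arrays came from the porcine pancreatic elastase (PPE) infusion model of abdominal aortic aneurysm (AAA). All 10 mice were male C57BL/6J animals aged 10 weeks on a normal diet. In each, the infrarenal aorta was tied off and filled for 5 min at 100 mmHg with saline alone (sham, 5 mice) or with saline holding type I PPE at 1.5 U/mL (5 mice), and the whole segment was taken 7 days after surgery. Sham and PPE mice therefore share the ligatures, the cut in the vessel, the pressure and the repair. The injury comes from a protease applied in the lumen, in young mice of 1 sex, and only 1 time point was read here. Each array held red-labelled RNA (500 ng) of 1 aorta beside green-labelled universal mouse reference RNA, so each value is a log2 ratio of aorta over reference. The aorta was always in red, so a probe's fixed dye bias drops out between groups. Values are compared within a gene, between arrays, and not between genes, whose reference levels differ.

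As background, Mmps are made as inactive proenzymes, most are secreted, and together they cut collagens, elastin and proteoglycans. The collagenases open the fibrillar collagens, the gelatinases cut denatured and basement membrane collagen, the stromelysins have broad substrates and activate other Mmps, and the membrane types act at the cell surface. ADAMTS proteases trim proteoglycans such as aggrecan and versican or process procollagen, and TIMPs bind the active site of the enzymes, with Timp3 the one best known for inhibiting ADAMTS enzymes. In the aorta, loss of elastin and remodelling of collagen by such enzymes are textbook features of aneurysm. mRNA levels say nothing of how much proenzyme was activated.

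A block of 10 Mmp genes lies on mouse chromosome 9. Its promoters are shown first because every match to 1 of the motifs searched fell in it, among the members whose promoter was at hand. On the array their probes span 414.9 kb, from base 7282762 to base 7697700 of chromosome 9 (build mm9), in the order Mmp13, Mmp12, Mmp1b, Mmp3, Mmp1a, Mmp10, Mmp8, Mmp27, Mmp20 and Mmp7. RefSeq promoters (build GRCm38.p6) were at hand for 32 of the 46 members, in 35 windows of 250 bases before to 50 after a start. These include all 10 cluster genes, so every member that could not be searched lies outside the cluster. Among those not searched were Mmp2, Mmp9, Mmp19, Adamts4, Adamts7 and Adamts16, all higher in PPE. The heptamer TGANTCA, the core of the AP-1 (Fos and Jun) site, was found on either strand in 8 of these 35 windows (22.9%), against 7.81% of all 32851 promoter windows of the same length. Each of the 8 belongs to the chromosome 9 cluster, 1 per gene, in Mmp1a, Mmp1b, Mmp3, Mmp7, Mmp10, Mmp12, Mmp13 and Mmp20. The hexamer TATAAA was in 11 windows (31.4%, against 13.6% of all), 8 of them the same windows. The 150 bases before the start are given 5′ to 3′ for 6 cluster genes, with each match to TGANTCA or TATAAA in capitals.
Mmp13, higher in PPE, chr9:7272364-7272513, plus strand: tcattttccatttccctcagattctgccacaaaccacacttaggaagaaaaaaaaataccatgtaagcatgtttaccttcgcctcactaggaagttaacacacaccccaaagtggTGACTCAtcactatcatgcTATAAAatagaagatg
Mmp12, higher in PPE, chr9:7347224-7347373, plus strand: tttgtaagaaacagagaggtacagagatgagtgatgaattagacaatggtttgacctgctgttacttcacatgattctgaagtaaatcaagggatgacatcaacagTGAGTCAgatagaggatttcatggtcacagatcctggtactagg
Mmp3, higher in PPE, chr9:7445672-7445821, plus strand: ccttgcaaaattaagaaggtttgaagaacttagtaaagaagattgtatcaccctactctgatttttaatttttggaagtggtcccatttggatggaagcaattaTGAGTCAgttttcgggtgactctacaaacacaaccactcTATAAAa
Mmp10, not tested, chr9:7502192-7502341, plus strand: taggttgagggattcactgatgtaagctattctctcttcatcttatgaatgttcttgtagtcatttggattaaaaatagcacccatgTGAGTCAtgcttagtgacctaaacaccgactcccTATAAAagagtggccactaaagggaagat
Mmp1a, not tested, chr9:7463991-7464140, plus strand: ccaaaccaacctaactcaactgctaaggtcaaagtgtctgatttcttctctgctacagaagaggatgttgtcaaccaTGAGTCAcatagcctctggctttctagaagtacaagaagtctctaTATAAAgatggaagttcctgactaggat
Mmp8, higher in PPE, chr9:7558279-7558428, plus strand: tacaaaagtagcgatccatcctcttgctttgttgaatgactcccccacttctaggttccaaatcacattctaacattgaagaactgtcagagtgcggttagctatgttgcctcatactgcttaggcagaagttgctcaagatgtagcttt
The TGANTCA match begins 35 bases before the start in Mmp13, 44 in Mmp12, 46 in Mmp3, 63 in Mmp10 and 73 in Mmp1a, and the window of Mmp8 has none. Mmp12 has another promoter window in the table, without a match. Of the 8 genes with the heptamer, 3 rose (Mmp3, Mmp12, Mmp13) and 5 were too dim to test, while Mmp8 rose without it and Mmp1a, which has it, was above background on no array. A match is a string of letters and not evidence that a factor binds.

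Across all 22520 names tested, 13.8% were higher and 9.96% lower in PPE than in sham at an adjusted p below 0.01 (limma with Benjamini-Hochberg adjustment over all names). Among the 33 tested members, 15 were higher and 3 lower. By family, 9 of 14 tested Mmp genes were higher and 0 lower, 5 of 15 Adamts genes were higher and 1 lower, and 1 of 4 Timp genes was higher and 2 lower. The median log2 fold change was 1.20 for Mmp genes, 0.33 for Adamts genes and -1.03 for Timp genes, beside 0.02 for all names tested. The sham and PPE arrays did not overlap for 15 members higher in PPE and for 3 lower, where 14.9% and 10.5% of all names tested did so. These shares lean on the filter, because 5 of the members called higher (Mmp8, Mmp12, Mmp13, Mmp25 and Adamts18) had no sham array above background and passed only through their 5 PPE arrays. With no filter on dim probes, 14 of all 46 members were higher (30.4%) and 3 lower (6.52%), against 8.49% and 5.94% of all 35527 names, with a median of 0.29 for the members and 0.0025 for all names. By family, the unfiltered medians were 0.39 for all 23 Mmp genes, 0.33 for all 19 Adamts genes and -1.03 for the 4 Timp genes. The Mmp median was thus still above the Adamts median without the filter, but by much less than with it. Without the filter, 9 Mmp genes (39.1%) and 4 Adamts genes (21.1%) were higher.

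**Figure D1:**
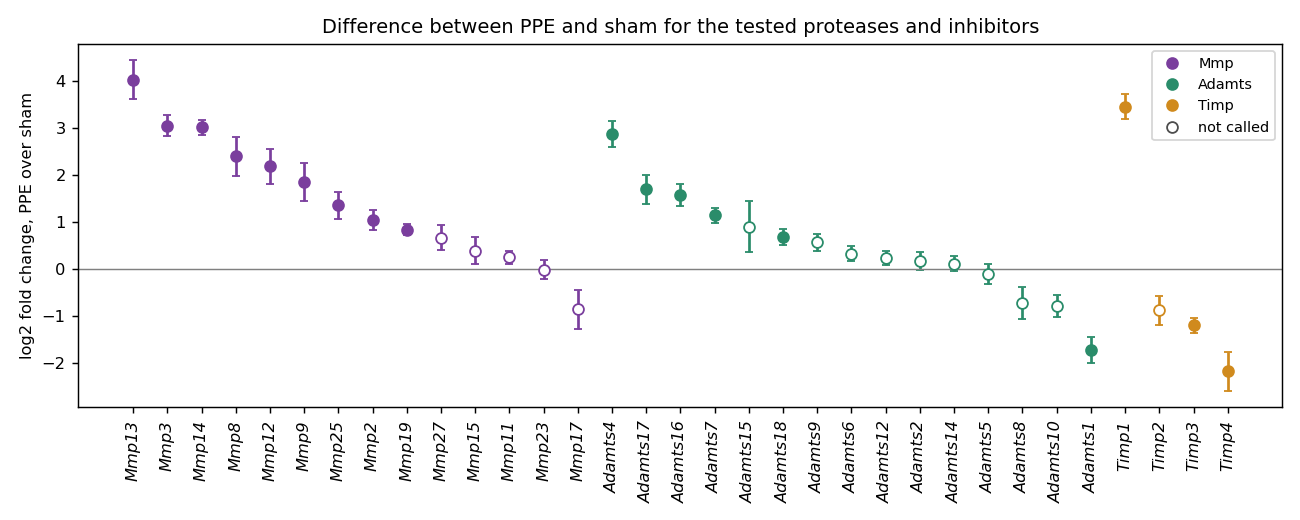
Log2 fold change of PPE over sham for the 33 tested members, by family (purple Mmp, green Adamts, orange Timp), with bars of 1 SE from the fit across all genes (n = 5 arrays a group). Filled points passed an adjusted p below 0.01, and they run from 4.03 for Mmp13 to -2.16 for Timp4.

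Between 37.6% and 65.8% of the spots of an array had red signal above background. The 10 arrays lay on 5 slides, of which 2 held both groups. They were scanned on 2 days, with sham 1, PPE 1 and PPE 2 apart from the rest. With scan day as a fixed block, 15 higher and 3 lower member calls were kept. Within slide 1 (1 sham, 2 PPE) and within slide 2 (2 sham, 2 PPE) all 15 members called higher were higher and all 3 called lower were lower, and the values of the former ran from 0.39 (Adamts18, slide 2) to 5.03 (Mmp13, slide 1). Sham 3 was the lowest sham array for 16 of the 33 tested members. Without it, 9 Mmp and 4 Adamts genes were higher and 4 members lower. Centring each array on its median log ratio, in place of loess, moved the median of all names to 0.42 and left 385 higher and 8 lower calls, so that 97.96% of the calls were higher, against 58.15% in the values given here. Of the member calls, 5 remained under that centring, those of Mmp3, Mmp13, Mmp14, Adamts4 and Timp1. As whole tissue was measured, more cells of a type and more RNA per cell cannot be told apart in any of the values.

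**Figure D2:**
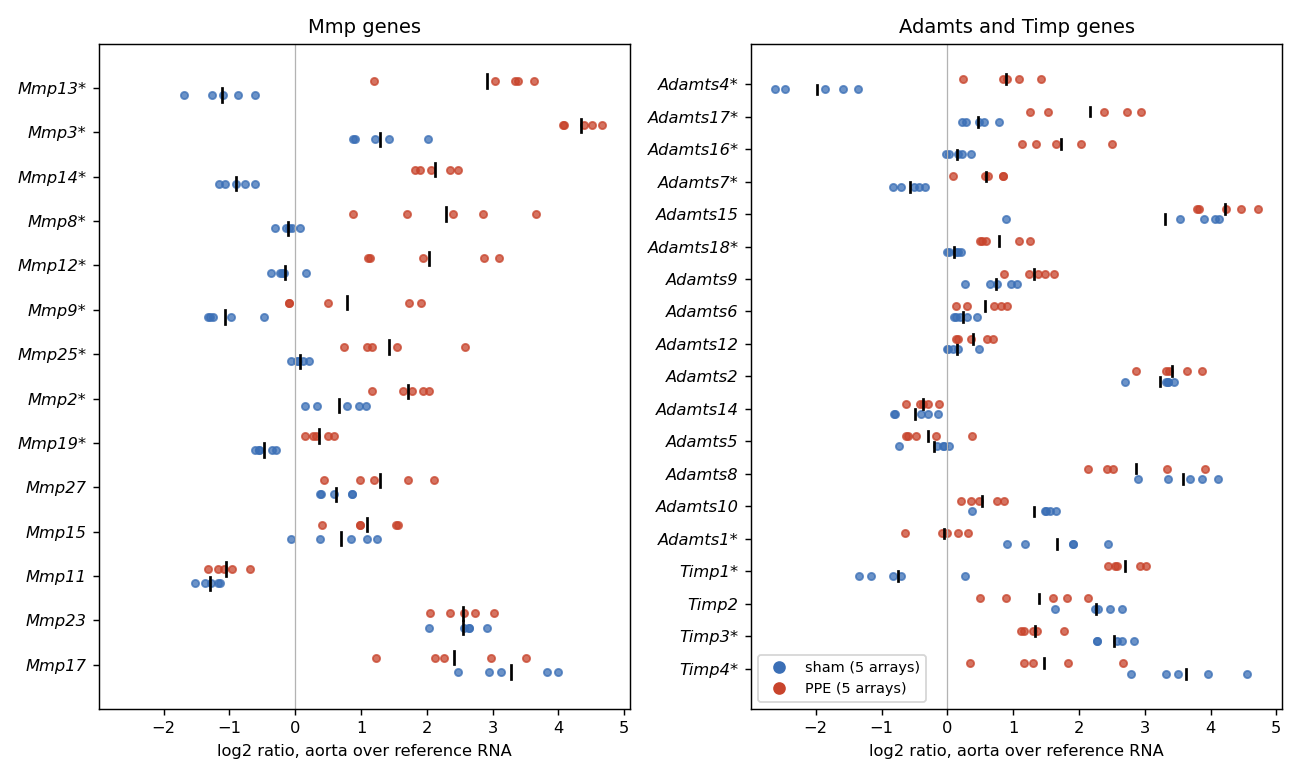
Log2 ratio of aorta over reference RNA on each array for the 33 tested members, ordered by fold change within each family. Blue points are the 5 sham and red points the 5 PPE arrays, black ticks are group means, and an asterisk marks an adjusted p below 0.01. For each gene with an asterisk the blue and red points do not overlap.

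The collagenases rose. Mmp13, or collagenase-3, which cuts fibrillar collagens, had log2 ratios of -1.70, -1.26, -0.87, -1.10 and -0.61 in sham 1 to 5 and 3.64, 3.03, 3.35, 3.38 and 1.20 in PPE 1 to 5. PPE 5 stood well below the other PPE arrays and was still above every sham array. The measured log2 fold change was 4.03 ± 0.41 (SE, n = 5 a group, limma adjusted p = 2.1e-05). Since no sham array had signal above background for Mmp13, the fold is a bound, at least 16.3-fold by the ratios and at least 16.7-fold by the red signal alone. The bounds by red signal, here and below, set the mean normalized red signal of the PPE arrays against a sham level, and are open to dye bias. On each sham array that level was the lowest red signal counted as above background, or the gene's own signal where higher. Mmp8, the collagenase stored in neutrophil granules, was likewise above background on no sham array, where its log2 ratios lay between -0.31 and 0.07. Its PPE values were 2.85, 1.70, 2.39, 3.65 and 0.88, a rise of at least 4.06-fold (adjusted p = 0.00081). The mouse counterparts of interstitial collagenase, Mmp1a and Mmp1b, were above background on none of the 10 arrays and were not tested.

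Both gelatinases rose, to unequal extent among the PPE aortas. Mmp2, a gelatinase of mesenchymal cells that is activated by Mmp14 with the help of Timp2, had log2 ratios of 0.33, 0.78, 0.15, 0.97 and 1.07 in sham and 1.64, 2.04, 1.78, 1.16 and 1.93 in PPE. The PPE values were all above the sham values, with a log2 fold change of 1.05 ± 0.21 (adjusted p = 0.0025). Mmp9, the gelatinase of neutrophils and macrophages, had values of -1.25, -1.29, -0.98, -1.32 and -0.48 in sham and 1.73, -0.10, 0.49, 1.91 and -0.10 in PPE. PPE 1 and PPE 4 were high and PPE 2 and PPE 5 only just above the highest sham array, and the SD was 0.98 in PPE against 0.36 in sham. Its log2 fold change was 1.85 ± 0.40 (adjusted p = 0.0035), and the call was lost by a narrow margin without sham 1, 2 or 4 (adjusted p at most 0.0115).

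Of the stromelysins, Mmp3 rose. Mmp3 (stromelysin-1), which cuts proteoglycans, laminin and fibronectin and activates the proenzymes of Mmp1 and Mmp9, had log2 ratios of 1.21, 1.43, 0.90, 0.88 and 2.02 in sham and 4.07, 4.51, 4.38, 4.65 and 4.09 in PPE. All PPE arrays were more than 2 log2 units above the highest sham array, with a log2 fold change of 3.05 ± 0.22 (adjusted p = 1.8e-06). Mmp10 (stromelysin-2) was above background on 0 sham and 4 PPE arrays, 1 array short of the filter, with PPE values of 1.90, -0.36, 0.18, 1.05 and -0.10. Mmp11 (stromelysin-3) was above background throughout and differed by 0.25 ± 0.13 on the log2 scale (adjusted p = 0.17).

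Mmp12, the macrophage metalloelastase, is known for cutting elastin, as are Mmp2, Mmp7 and Mmp9. No sham array was above background (log2 ratios -0.37 to 0.16), and the PPE values were 3.09, 2.87, 1.13, 1.94 and 1.11. PPE 1 and PPE 2 were the highest and all PPE arrays lay above all sham arrays, a rise of at least 4.29-fold (adjusted p = 0.00072). The other probe of Mmp12 was above background on 0 sham arrays and 1 PPE array and was not tested. Matrilysin (Mmp7), a small Mmp made mostly by epithelia, was above background on 1 sham and 3 PPE arrays and was not tested.

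Of the membrane types, Mmp14 had the lowest adjusted p of all members. Mmp14 (MT1-MMP), a transmembrane collagenase and the activator of Mmp2, had values of -0.89, -0.77, -1.06, -1.17 and -0.61 in sham and 2.47, 1.89, 2.06, 1.82 and 2.35 in PPE. The groups were tight and far apart, with a log2 fold change of 3.02 ± 0.16 (adjusted p = 3.4e-07), and 3.41 under median centring. Mmp25 (MT6-MMP), a lipid-anchored enzyme of leukocytes, was not above background on any sham array and reached 2.58, 1.55, 1.16, 1.08 and 0.74 in PPE, at least 2.28-fold higher (adjusted p = 0.0027). Mmp15 (0.39 ± 0.28, adjusted p = 0.32) and Mmp17 (-0.85 ± 0.41, adjusted p = 0.14) were not called, and Mmp16 and Mmp24 were too dim to test. Mmp17 is a lipid-anchored type known from vascular smooth muscle, and its sham values of 2.47 to 3.99 overlapped the PPE values of 1.22 to 3.50.

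Among the remaining Mmp genes, Mmp19, found in vessel wall and activated monocytes, was the other called member. Its log2 ratios were -0.61 to -0.29 in sham and 0.15 to 0.59 in PPE, a small and regular rise of 0.84 ± 0.12 (adjusted p = 2.0e-04). Mmp27, which lies between Mmp8 and Mmp20 in the cluster, differed by 0.67 ± 0.27 (adjusted p = 0.076), and passed the threshold with slide as a fixed block (0.78, adjusted p = 0.007) but not with slide as a random block (0.68, adjusted p = 0.021). Mmp23 did not pass, at -0.01 ± 0.20, and read 0.64 under median centring. Mmp20 (enamelysin, an enzyme of teeth), Mmp21 and Mmp28 were too dim to test.

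**Figure D3:**
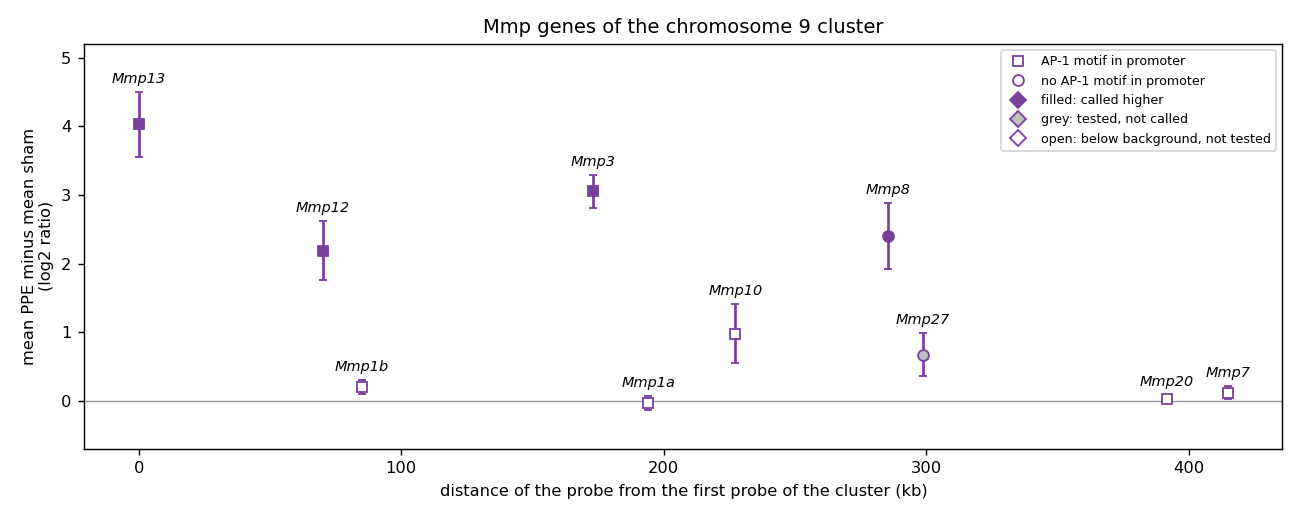
Difference of the group means (PPE minus sham, log2 ratio; bars are the SE from the 2 group SDs, n = 5 each) for the 10 cluster genes of chromosome 9, against the distance of each probe from the first in kb. Filled symbols were called higher (Mmp13, Mmp12, Mmp3, Mmp8), the grey symbol was tested and not called (Mmp27), open symbols were too dim to test, and squares mark a promoter window with TGANTCA.

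Of all 10 cluster genes, tested or not, 4 rose, and of the 13 Mmp genes outside it 5 did. Among tested genes the shares were 4 of 5 (80%) in the cluster and 5 of 9 (55.56%) outside it. Of the cluster genes that rose, Mmp8, Mmp12 and Mmp13 had passed the filter only through their PPE arrays. The genes that rose are not all neighbours along it. Mmp1b, above background on no array, lies between Mmp12 and Mmp3, which both rose. Mmp1a, also above background on no array, and Mmp10, not tested, lie between Mmp3 and Mmp8, which both rose. Mmp20 and Mmp7, at the end away from Mmp13, stayed at log2 ratios from -0.11 to 0.43 on all arrays.

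Of the ADAMTS proteases that cut aggrecan and versican, Adamts4 and Adamts1 moved in opposite directions. Adamts4 (aggrecanase-1) had log2 ratios of -2.47, -1.86, -1.59, -2.61 and -1.35 in sham and 0.90, 0.23, 1.42, 1.09 and 0.85 in PPE. It was above background on 3 of 5 sham and all PPE arrays, with a log2 fold change of 2.88 ± 0.28 (adjusted p = 1.4e-05). Adamts1, also known as METH1, which cuts versican and inhibits angiogenesis, had values of 1.91, 2.44, 1.18, 1.91 and 0.91 in sham and -0.64, -0.08, -0.01, 0.16 and 0.32 in PPE. It was above background on all arrays and fell by 1.72 on the log2 scale (SE 0.28, adjusted p = 6.0e-04), although under median centring the difference was -0.97 and not called. Adamts5 (aggrecanase-2), the gene next to Adamts1 on chromosome 16, differed by -0.10 ± 0.21 (adjusted p = 0.76), and read 0.23 under median centring and 0.11 on its other tested probe. The probes of Adamts1 and Adamts5 start at bases 85795044 and 85899450 of that chromosome (mm9).

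The other proteoglycan-cleaving members gave no calls. Adamts9 was higher by 0.58 ± 0.18 (adjusted p = 0.026) and passed with slide as a fixed block (0.62, adjusted p = 0.0087) or a random one (0.58, adjusted p = 0.0085), while Adamts8 differed by -0.71 ± 0.34 (adjusted p = 0.13) and read 0.17 under median centring. Adamts15 read 4.12, 3.90, 0.90, 4.07 and 3.54 in sham and 3.80 to 4.72 in PPE. Sham 3 alone stood far below all other arrays, and without it the difference fell from 0.91 to 0.30 with no call in either case. Adamts20 was too dim to test.

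The Adamts genes of no substrate class used here held 3 of the 5 that rose. Adamts17, whose loss in humans gives a short-stature eye syndrome, had values of 0.22 to 0.79 in sham and 2.73, 2.94, 2.38, 1.25 and 1.52 in PPE, a log2 fold change of 1.70 ± 0.30 (adjusted p = 0.0011). Adamts16, a gene linked to blood pressure in rats, had values of -0.01 to 0.36 in sham and 2.50, 1.65, 2.03, 1.13 and 1.34 in PPE, a log2 fold change of 1.58 ± 0.23 (adjusted p = 2.5e-04). In both, the PPE arrays were all above the sham arrays, with PPE 4 and PPE 5 the lowest of them. Both calls rest on 1 probe, and the other probe of each gene was too dim to test. That probe was above background on 1 sham and 2 PPE arrays for Adamts17 and on 0 and 0 for Adamts16. Adamts18 was above background on no sham array and rose by at least 1.41-fold (adjusted p = 0.0058), but the call was lost in 7 of the 10 fits that left out 1 array. Its other probe, above background on 1 sham and 3 PPE arrays, was not tested. With no filter on dim probes Adamts18 read 0.52 and was not called (adjusted p = 0.036). Adamts10, a binding partner of fibrillin microfibrils, had sham values of 1.49, 1.65, 0.37, 1.50 and 1.55 and PPE values of 0.21 to 0.85. Sham 3 alone fell within the PPE range, so the difference of -0.78 ± 0.24 was not called (adjusted p = 0.023) and became -1.02 (adjusted p = 3.9e-04) without that array. Adamts6 differed by 0.33 (adjusted p = 0.13), and Adamts19 was too dim to test.

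Of the pair that cuts cartilage oligomeric matrix protein (Comp), Adamts7, known for its effect on smooth muscle cell migration, rose. Its log2 ratios were -0.82, -0.51, -0.34, -0.71 and -0.44 in sham and 0.85, 0.61, 0.57, 0.84 and 0.09 in PPE, with a log2 fold change of 1.15 ± 0.16 (adjusted p = 1.8e-04). Adamts12 differed by 0.24 ± 0.14 (adjusted p = 0.23). The procollagen N-proteinases, which trim fibrillar procollagens, showed no call, with Adamts2 at 0.18 ± 0.20 (adjusted p = 0.54), Adamts14 at 0.12 ± 0.15 (adjusted p = 0.61) and Adamts3 too dim to test. Adamts13, the von Willebrand factor protease made in the liver, was above background on 1 array only.

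The 4 inhibitors did not move together. Timp1, the inducible inhibitor that binds most secreted Mmps, had log2 ratios of -1.15, -0.83, -1.35, -0.71 and 0.27 in sham and 2.55, 2.92, 2.58, 2.44 and 3.02 in PPE. Sham 5 was the highest sham array and still more than 2 log2 units below the lowest PPE array, and the log2 fold change was 3.46 ± 0.27 (adjusted p = 3.0e-06). Timp4, the inhibitor best known from heart and fat, had values of 4.56, 3.50, 3.32, 3.96 and 2.79 in sham and 1.83, 2.67, 1.30, 1.16 and 0.35 in PPE. The groups came close at sham 5 and PPE 2 without overlapping, and Timp4 fell by 2.16 on the log2 scale (SE 0.42, adjusted p = 0.0017). Timp3, the inhibitor held in the matrix, had values of 2.58, 2.84, 2.27, 2.65 and 2.28 in sham and 1.16, 1.36, 1.77, 1.30 and 1.12 in PPE. It fell by 1.19 (SE 0.16, adjusted p = 1.3e-04). Timp2, the constitutive inhibitor that also takes part in activating proMmp2, had values of 2.24, 2.65, 1.63, 2.29 and 2.48 in sham and 0.89, 1.82, 1.61, 0.49 and 2.13 in PPE, with overlapping groups and a difference of -0.87 ± 0.30 (adjusted p = 0.045) that was not called. Its other tested probe gave -0.15. Under median centring the calls of Timp3 (-0.32) and Timp4 (-1.42) were lost and Timp2 read 0.13, while Timp1 read 4.05 and stayed called.

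To set proteases against their inhibitors, the log2 ratio of the inhibitor was subtracted from that of the protease on the same array for 10 pairs. This takes out a shift that is equal for all probes of an array, and no other array effect. Only the change between groups can be read, not the sign of a difference, and the pairing of names follows known binding and says nothing of amounts of protein. Groups were compared by an exact two-sided permutation test over the 252 ways to split the arrays, whose smallest p is 0.00794, with Benjamini-Hochberg adjustment over the 10 pairs and a threshold of 0.05. These values rest on the same arrays as the fold changes above and are not separate evidence for them. For Adamts4 minus Timp3 the smallest p was fixed beforehand, since Adamts4 rose and Timp3 fell, each without overlap between groups. In the pairs of Mmp2 and Mmp14 the protease alone had already parted the groups.

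**Figure D4:**
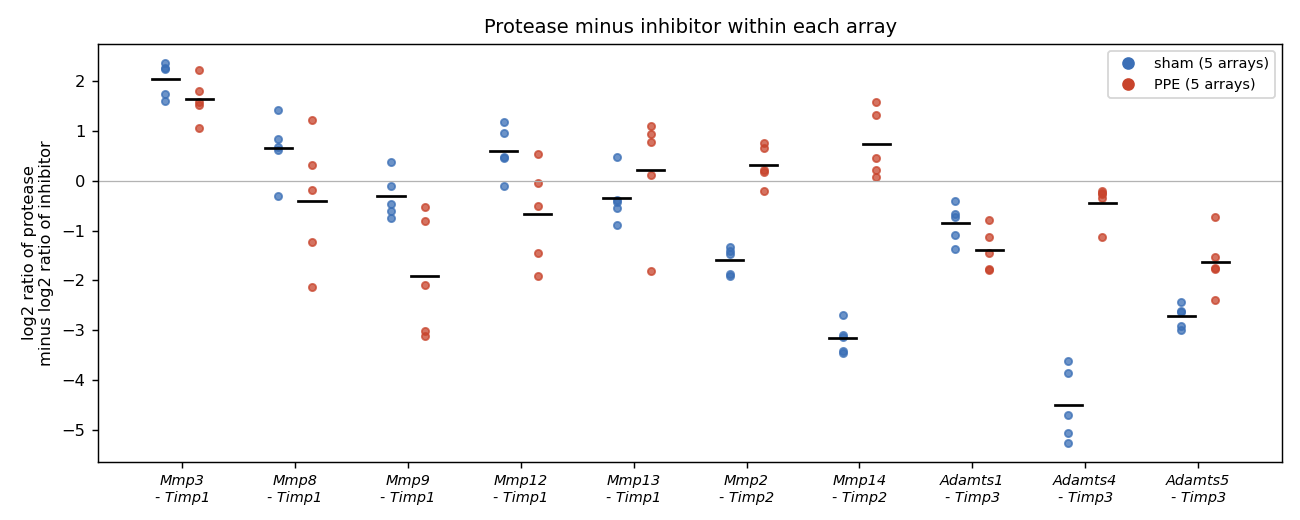
Log2 ratio of the protease minus that of the inhibitor on each array for the 10 pairs, with 5 sham (blue) and 5 PPE (red) arrays and black bars at the group means. The 4 pairs in which the groups do not overlap are Mmp2 and Mmp14 against Timp2 and Adamts4 and Adamts5 against Timp3.

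In 4 pairs the protease rose relative to the inhibitor it was set against, with no overlap between groups. Each had the smallest p the test allows (exact permutation p = 0.00794, adjusted 0.0198). Mmp14 minus Timp2 was -3.14, -3.42, -2.69, -3.45 and -3.09 in sham and 1.58, 0.07, 0.45, 1.33 and 0.22 in PPE, a change of 3.89 ± 0.33. Mmp2 minus Timp2 was -1.91 to -1.32 in sham and -0.20 to 0.75 in PPE, a change of 1.92 ± 0.21. With the mean of both Timp2 probes these changes were 3.53 and 1.56, with the same adjusted p. The direction for Mmp2 does not hold against every inhibitor: Timp1, which binds most secreted Mmps, rose by 3.46, against 1.05 for Mmp2. Timp3 (-1.19) and Timp4 (-2.16) fell. Mmp2 was not tested against Timp1, Timp3 or Timp4. Adamts4 minus Timp3 was -5.06, -4.70, -3.86, -5.26 and -3.63 in sham and -0.25, -1.13, -0.35, -0.21 and -0.27 in PPE, a change of 4.06 ± 0.37. Adamts5 minus Timp3 was -3.00 to -2.44 in sham and -2.39 to -0.74 in PPE, a change of 1.08 ± 0.29. In the last pair only the inhibitor had passed its own test, and the call was lost with the scanner's processed signals (1.14, adjusted p = 0.0661) and under median centring (0.55, adjusted p = 0.282).

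None of the 5 pairs with Timp1 passed. Mmp3 minus Timp1 changed by -0.40 ± 0.24 (exact p = 0.127, adjusted 0.159), the enzyme and the inhibitor both having risen about 3 log2 units. Mmp9 minus Timp1 was -0.75 to 0.37 in sham and -0.81, -3.02, -2.08, -0.53 and -3.12 in PPE, a change of -1.60 ± 0.58 (exact p = 0.0317, adjusted 0.0634), with PPE 1 and PPE 4 close to the sham arrays and PPE 2, 3 and 5 far below. For Mmp8 (-1.05), Mmp12 (-1.27) and Mmp13 (0.57) against Timp1 the sham value of the protease is only background, and the direction of the change was not settled: with the scanner's processed signals it was 1.25, 0.92 and 3.57, the last with adjusted p = 0.0198, and under median centring -2.10, -2.15 and -0.093. Adamts1 minus Timp3 changed by -0.53 ± 0.26 (exact p = 0.0635, adjusted 0.0907), both genes having fallen.

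The values of dim members also depended on the signals used. With the scanner's processed signals, which differ in both background correction and dye normalization, 8 of the 18 called members had a fold change over 1.5 times that given above, among them Mmp13 (7.17 on the log2 scale), Adamts4 (4.86), Mmp8 (4.85), Mmp12 (4.53), Mmp25 (3.96) and Adamts18 (2.88), and all 18 calls and their directions held.

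The genes that act with these enzymes showed a mixed picture. The counts in this and the following lists, markers included, stand beside 13.8% of all names tested higher and 9.96% lower. Of 7 tested activators of proenzymes, 3 rose and 1 fell: the urokinase receptor Plaur (1.68 ± 0.16, adjusted p = 1.0e-05), urokinase Plau (0.89) and Furin (0.76), the convertase that activates membrane-type Mmps, rose, and the convertase Pcsk6 fell by 1.51. Of 7 tested other inhibitors, 1 rose, near the share of all names, and 2 fell. Tfpi2, a matrix-bound serine protease inhibitor, rose by 2.08 ± 0.44 (adjusted p = 0.0032). It was above background on 1 sham and 5 PPE arrays, so its sham level is mostly background. Reck, a membrane-anchored inhibitor of Mmp2, Mmp9 and Mmp14, fell by 1.13 (SE 0.22, adjusted p = 0.0022), and Serpine2 (protease nexin-1) fell by 1.59 (SE 0.36, adjusted p = 0.0045).

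Of 8 tested members of the related ADAM family of membrane sheddases, 3 rose and 0 fell. Adam8, a leukocyte sheddase, went from -2.62 in sham to 1.48 in PPE on average, a log2 fold change of 4.10 ± 0.35 (adjusted p = 5.5e-06), and Adam10 (1.19) and Adam19 (1.49) also rose. Adam17, the shedder of tumour necrosis factor, read 0.46 and was not called (adjusted p = 0.024). Of 6 ADAMTS-like proteins, which lack a protease domain, 0 rose and Adamtsl5 fell by 1.67. Of 15 substrates, 6 rose and 0 fell: thrombospondin-1 (Thbs1, 3.22 ± 0.37), Col1a1 (2.04 ± 0.22), Col3a1 (1.95 ± 0.20), osteopontin (Spp1, 1.70), Fbn1 (1.35) and Col1a2 (1.21). Elastin (Eln) read -0.17 ± 0.34 (adjusted p = 0.74), and Vcan, Acan, Comp and Dcn were not called.

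Of 8 binding partners and inducers, 7 rose and 0 fell, among them the inducing cytokine Il1b (5.80 ± 0.23, above background on 2 sham and 5 PPE arrays), Lcn2 (2.89 ± 0.20), which forms a complex with Mmp9, and Cd44 (2.46), which holds Mmp9 at the cell surface. The cytokine Il6 was above background on 0 sham and 5 PPE arrays (adjusted p = 1.0e-05), so its sham level is only a bound. Of 12 tested transcription factors that are known to act on Mmp promoters, 2 rose (Runx1, 2.32, and Nfkb1, 0.53) and 2 fell (Fosb, -1.44, and Jund, -0.88). Both counts are near the shares of all names tested (13.8% higher and 9.96% lower). Of the other AP-1 subunits, Fos read -0.06, Jun -0.70, Junb 0.22, Fosl1 -0.17 and Fosl2 0.92, none of them called.

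Markers of leukocytes and smooth muscle moved with these genes. Of 9 neutrophil markers, 7 were higher in PPE (S100a8 by 5.53 and Cxcr2, above background on 1 sham and 5 PPE arrays, by 3.49). Elane (0.59) and Csf3r (-0.08) were not called. The mean log2 ratio over the neutrophil list was 0.35 to 0.51 in sham and 2.53 to 3.93 in PPE. Of 8 macrophage markers, 6 were higher (Emr1 by 3.42 and Cd68 by 2.33), with list means of 0.62 to 1.16 in sham and 2.24 to 3.13 in PPE. Cd163 (-0.46) and Itgam (0.44) were not called. Of 6 smooth muscle markers, 4 were lower (Tagln by -2.95 and Acta2 by -2.49), with list means of 3.61 to 4.44 in sham and 1.99 to 3.27 in PPE. Of 5 T cell markers 2 were higher, and of 6 fibroblast markers 3. No marker of B cells, endothelium, adipocytes, skeletal muscle or mast cells was called. The adipocyte list read 5.31 to 7.33 on all arrays. Of the neutrophil markers, Ngp was above background on no sham array; each other marker on every list was above background on at least 1 array of both groups. Among the PPE arrays, the neutrophil mean and Mmp8 were both highest on PPE 4 (3.93 and 3.65) and both lowest on PPE 5 (2.53 and 0.88). Mmp9 was highest on PPE 4 and lowest on PPE 2 and PPE 5, and Mmp25 did not follow that order, with 1.08 on PPE 4 and 1.55 on PPE 2. The part of changed cell makeup in the protease and inhibitor values was not tested.

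**Figure D5:**
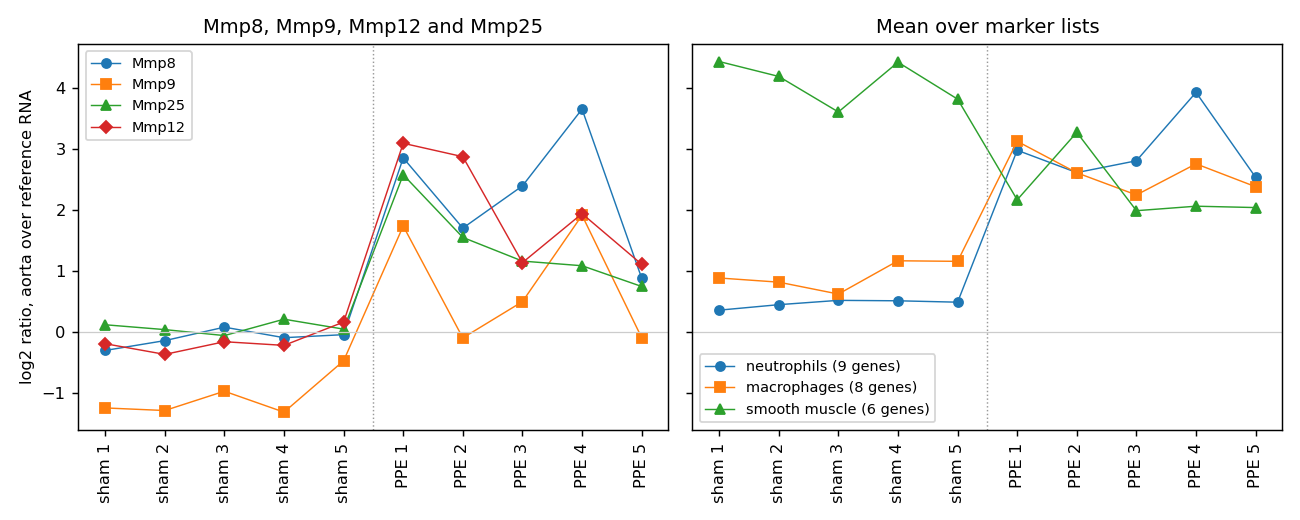
Left, log2 ratios of Mmp8, Mmp9, Mmp12 and Mmp25 on each array. Right, the mean log2 ratio over 9 neutrophil, 8 macrophage and 6 smooth muscle markers on the same arrays. Lines join arrays only to guide the eye, and in PPE the neutrophil mean and Mmp8 both peak on PPE 4.

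Among the PPE arrays the 15 members that rose did not share 1 order. PPE 1 was the highest array for 7 of the 15, PPE 4 the lowest for 6 and PPE 5 the lowest for 5. PPE 1 and PPE 2 also shared a slide and a scan day, apart from the other PPE arrays. Mmp3, Mmp14 and Timp1 varied little (SD 0.26, 0.28 and 0.25 on the log2 scale, n = 5), whereas Mmp8 (1.06), Mmp13 (0.99), Mmp9 (0.98) and Mmp12 (0.94) varied 3 or more times as much. The AGGAAG hexamer, a core of ETS family sites, was in 16 of the 35 member windows (45.7%, against 35.4% of all), with 3 copies in Timp1, and the NF-κB consensus searched was in 0 of 35 (1.63% of all). These counts describe the windows only.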

How the data were processed

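Members, pairs and gene lists were chosen with earlier results of these data known. The authors extracted spots with Feature Extraction 10.7.3.1 (array build mm9, per the submitters' processing notes) and, by the study's methods, left out poorly hybridized and outlying arrays, which can widen the distance between groups. The deposited spot and background signals are intensity values on a linear scale. The deposited LogRatio (log10) and the authors' series matrix (log2, equal to log2 of processed red over green on 100% of spots) served as alternatives.

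In R 4.3.3 with limma 3.58.1, mean signals were corrected by normexp (offset 50, which understates changes of dim probes) and normalized by loess, with control and outlier spots (176 to 331 per array) given weight 0. Spots of a probe were averaged. Probes with red signal well above background on at least 5 arrays were tested (lmFit, eBayes, Benjamini-Hochberg over 22520 names, call at 0.01), and the brightest probe stood for a gene. The study's test, SAM, was not run. Every member is accounted for, with full values for called members of at least 1 log2 unit, the Timps and the pairs. Fits were tested on simulated data with 200 changed names among 22489. Of log2 changes of 0.5, 1 and 2, 2.99%, 49.3% and 95.5% were recovered there. A member that was not called may therefore still have changed. The number of arrays limits precision. Protein sequences were not analysed here. Alternatives were other signals, centring, filters, probe means, blocks and leaving out arrays.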

Additional observations from a re-analysis of the deposited data

Results flagged for a closer look

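Of 86 groups of 5 arrays (33 members and 10 pairs, sham and PPE), 6 held an array far from the others by Dixon's criterion, and chance alone marks about 1 in 20. Sham 3 was low for 4 Adamts genes, with log2 ratios of 0.37 for Adamts10 (next lowest 1.49), 0.90 for Adamts15 (3.54), 2.70 for Adamts2 (3.33) and -0.73 for Adamts5 (-0.16). PPE 5 was low for Mmp13, at 1.20 against 3.03 for the next. PPE 2 was low for Adamts4 minus Timp3, at -1.13 against -0.35 for the next.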

How the results depend on the processing

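The scanner's processed signals, the LogRatio column and the series matrix kept all 18 member calls. They turned Mmp8 minus Timp1 (1.25, 1.23 and 1.25) and Mmp12 minus Timp1 (0.92 in each), gave Mmp13 minus Timp1 as 3.57 with a call, and lost the call of Adamts5 minus Timp3 (1.14). Median centring left 385 names higher and 8 lower, with 3 Mmp genes and 1 Adamts gene higher and 0 members lower. It turned Adamts5 (0.23), Adamts8 (0.17), Mmp23 (0.64), Timp2 (0.13) and Mmp13 minus Timp1 (-0.093), made calls of Mmp8 (-2.10), Mmp9 (-1.90) and Mmp12 (-2.15) minus Timp1, and lost Adamts5 minus Timp3 (0.55). The cause was not tested. Signal above background on all 10 arrays, which tests fewer genes, left 4 Mmp and 0 Adamts genes higher. The mean of both probes gave Adamts5 as 0.0056. Within slide 1, 3 pairs moved by more than the spread (Mmp3 minus Timp1 to -0.81, Mmp2 minus Timp2 to 2.39, Adamts1 minus Timp3 to -0.95).

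Leaving out 1 array at a time gave 2512 to 3615 names higher and 1754 to 2352 lower, 8 to 10 Mmp and 4 to 6 Adamts genes higher, and 3 to 4 members lower. Pairs ranged from -1.95 to -1.30 for Mmp9 minus Timp1 (called without PPE 1, 4 or 5), -1.57 to -0.96 for Mmp12 minus Timp1 (called without PPE 1), 0.35 to 1.08 for Mmp13 minus Timp1 and -0.68 to -0.42 for Adamts1 minus Timp3 (both called without PPE 5). Mmp23, near 0, ranged from -0.15 to 0.11. It was above 0 without sham 1 (0.0072), sham 4 (0.08), sham 5 (0.0058), PPE 3 (0.04) or PPE 4 (0.11).

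Equal replicate numbers did not pair the arrays: their deviations from the group means correlated by 0.29, -0.30, 0.16, -0.14 and 0.52 for numbers 1 to 5. With the replicate number as a block, 3022 names were higher and 2283 lower, and Adamts9 (0.58) was also called. As an exact sign-flip permutation over 5 pairs, which cannot go below p = 0.0625, the block left Mmp2 minus Timp2 (1.92), Mmp14 minus Timp2 (3.89), Adamts4 minus Timp3 (4.06) and Adamts5 minus Timp3 (1.08) at an adjusted p of 0.125.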
